A study of Mus musculus with 16 samples.

Results

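Mature oligodendrocyte and myelin genes were examined in the hippocampus of 3xTG-AD mice, as a list of 32 genes expressed by the cells that wrap axons in myelin. Of these, 31 were measured among 12266 genes tested. Trf, which encodes transferrin and was the other listed gene, was not analysed here because its probe set carried more than 1 gene symbol. Each gene was represented by the probe set with the highest mean over the 16 arrays among those with 1 symbol, and all 31 lay above the filter on low values (a mean of 3.58 log2 units).

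The 16 arrays were of total RNA from the hippocampus of 16 female mice, 1 array per numbered subject, aged 14 months at collection. All animals carried the 3xTG-AD model of Alzheimer's disease, in which mutant human APP and tau are driven in neurons by a Thy1 promoter on a mutant presenilin 1 background, so no animal without the disease alleles was compared. The control group (animals 1 to 8) received a control diet, and the PIO group (animals 9 to 16) received pioglitazone in the diet at 84 ppm (a daily dose near 18 mg per kg) from 10 months of age for about 14 weeks. Pioglitazone is a thiazolidinedione, an activator of the nuclear receptor PPAR gamma. The comparison asked how the hippocampus of treated animals differed from that of controls.

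Myelin is a stack of oligodendrocyte membrane, held together by a small set of abundant proteins and unusually rich in galactolipids and cholesterol. Its genes are switched on together when precursors mature, under transcription factors that include SOX10 and MYRF. In the hippocampus myelinated axons run mainly in the alveus, the fimbria and the perforant path, so the amount of white matter taken with the tissue is part of any bulk measurement. In such RNA, fewer oligodendrocytes and less myelin RNA per cell cannot be told apart.

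The members lay lower in the PIO group by small amounts, and none passed the test. By limma with Benjamini-Hochberg adjustment over all 12266 genes, 0 of 31 members had an adjusted p under 0.05, as had 0 of all genes (0%), and the smallest adjusted p of a member was 0.60. The group mean was lower with PIO in 30 of 31 members, against 47.3% of all genes tested. The median difference of the members, PIO minus control, was -0.22 log2 units, and that of all genes was 0.0045. At an unadjusted p under 0.05, 13 members were lower and 0 higher, where 3.15% of all genes were lower and 3.86% higher at that level. The members varied together between animals, so these counts are not of 31 separate observations.

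**Figure D1:**
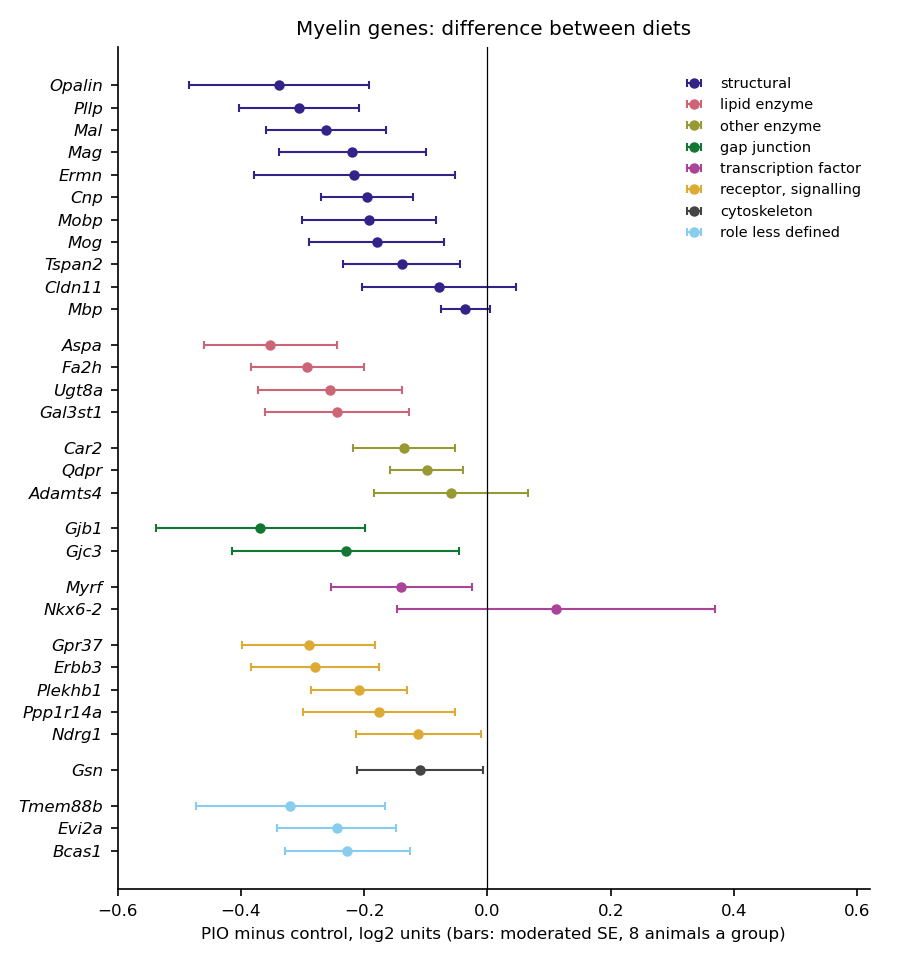
Difference between diets for each of the 31 measured genes, on the x axis as PIO minus control in log2 units, with the moderated SE as bars and genes on the y axis grouped and coloured by role. All points but that of Nkx6-2 lie below 0, from -0.37 for Gjb1 to -0.036 for Mbp, and no gene passed the adjusted test.

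The arrays differed in what they held besides myelin. Choroid plexus genes varied most, with list means from -3.64 to 2.7 log2 units around the mean of all arrays. Striatal markers, of which 14 of 18 were measured above the filter, had a list mean of 0.57 in PIO animal 14 and 0.71 in PIO animal 15, against -0.31 to 0.29 in the controls and at most 0.023 in the other PIO animals. Drd2 and Ido1 of that list lay below the filter. Hippocampal markers, of which 16 of 17 were measured, were lowest in the same animals, at -0.50 and -0.53, against -0.11 to 0.26 in the others. Thalamic markers stood apart in PIO animal 16, with a list mean of 1.04 against at most 0.13 in any other array, and this animal had the highest member mean of the PIO group. The mean of the myelin genes was lowest in PIO animals 14 and 15. The part of these animals and of PIO animal 16 in the results was not tested beyond the values given with and without them. A letter code closes the description of every array and its meaning is not given. It put 5 control and 6 PIO arrays under code A, 2 and 1 under code B, and 1 and 1 under code C. A number at its start ran from 1 to 6 in 4 control and 2 PIO arrays and from 10 to 24 in 4 control and 6 PIO arrays. The defining proteins of mature oligodendrocytes, among them Mbp, Mog, Mag and Mobp, were all measured well above the filter.

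Per animal, the mean of the 31 members relative to all arrays was 0.10 ± 0.17 log2 units over the 8 controls and -0.10 ± 0.21 over the 8 PIO animals (SD). Controls ran from -0.20 to 0.35 with a median of 0.087, and PIO animals from -0.50 to 0.14 with a median of -0.069. The groups overlapped over most of their range: control animal 1 lay at -0.20, below 6 of the 8 PIO animals, and PIO animals 10 and 16 lay at 0.12 and 0.14, each above at least 4 of the controls. PIO animal 15, at -0.50, had the lowest value of all 16 arrays for 25 of 31 members, and control animal 8, at 0.35, had the highest for 16. PIO animal 14 lay at -0.25 and was among the 4 lowest arrays for 24 members.

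**Figure D2:**
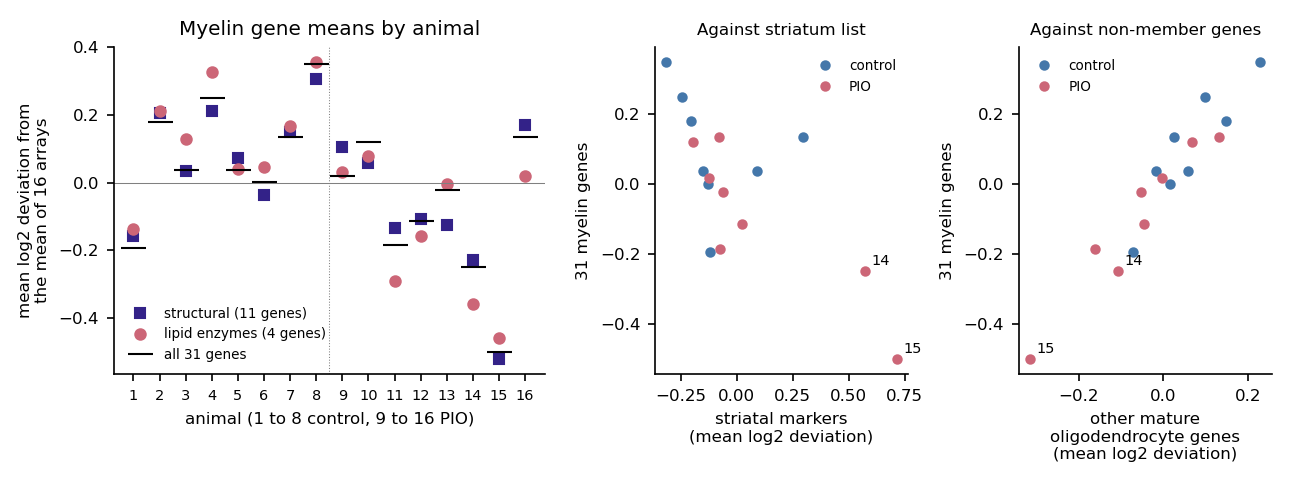
Left, mean log2 deviation from the 16-array mean in each animal for the 11 structural genes, the 4 lipid enzyme genes and all 31 genes. Centre and right, the mean of the 31 genes on the y axis against the means of the striatal list and of other mature oligodendrocyte genes on the x axis, 1 point per animal, with PIO animals 14 and 15 labelled. These animals had striatal means of 0.57 and 0.71 and the lowest myelin means, -0.25 and -0.50.

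All 4 lipid enzyme genes had a lower mean with PIO (47.3% of all genes did), and 3 of them were lower at an unadjusted p under 0.05 (3.15% of all genes). Aspa and Fa2h had the smallest p of the 31 members, followed by the structural gene Pllp. Aspa, which releases acetate from N-acetylaspartate in oligodendrocytes, ran from 9.41 to 10.00 log2 units in controls (median 9.66) and from 8.86 to 9.70 with PIO (median 9.34). The groups overlapped, but 5 of 8 PIO animals lay below the lowest control, as at least 4 did in 5.13% of all genes. The difference was -0.35 (SE 0.11), a level 1.28-fold lower, with an unadjusted p of 0.00457 and an adjusted p of 0.60 by limma. Fa2h, the hydroxylase that supplies hydroxy fatty acids for myelin galactolipids, ran from 10.35 to 10.79 in controls (median 10.59) and from 9.93 to 10.55 with PIO (median 10.33). All 8 PIO animals lay below the control median and 5 below the lowest control. Its difference was -0.29 (SE 0.092), 1.22-fold lower (adjusted p = 0.60 by limma).

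Ugt8a, which builds galactosylceramide, the main galactolipid of myelin, ran from 11.87 to 12.47 in controls (median 12.23) and from 11.52 to 12.36 with PIO (median 11.99). Its 2 lowest arrays were PIO animals 14 and 15, and the difference was -0.25 (SE 0.12, adjusted p = 0.710 by limma). Gal3st1, which sulfates that lipid to sulfatide, ran from 7.57 to 8.16 in controls (median 7.79) and from 7.09 to 7.98 with PIO (median 7.63). Its lowest array was PIO animal 11, at 7.09, followed by PIO animals 15 and 14 at 7.49 and 7.51, which were the 2 lowest for Ugt8a. The difference was -0.24 (SE 0.12, adjusted p = 0.720 by limma).

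Among the structural genes all 11 were lower with PIO, against 47.3% of all genes, and 4 were so at an unadjusted p under 0.05, against 3.15%, with a median difference of -0.20. Pllp encodes plasmolipin, a tetraspan protein of compact myelin, and ran from 10.24 to 10.74 in controls (median 10.40) and from 9.89 to 10.58 with PIO (median 10.11). In 6 of 8 PIO animals it lay below the lowest control, the most of any member, and only PIO animals 9 and 16 lay inside the control range. Its difference was -0.31 (SE 0.098), 1.24-fold lower (adjusted p = 0.605 by limma). Mal, a related raft protein that sorts cargo to the myelin membrane, ran from 12.99 to 13.48 in controls (median 13.22) and from 12.48 to 13.20 with PIO (median 12.92). All 8 PIO animals lay below the control median, with a difference of -0.26 (SE 0.097, adjusted p = 0.681 by limma). Opalin, an oligodendrocyte membrane glycoprotein, had the largest structural difference at -0.34 (SE 0.15), with 5 PIO animals below the lowest control but PIO animal 16 highest of all 16.

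Cnp, the cyclic nucleotide phosphodiesterase that keeps cytoplasmic channels in myelin open, ran from 13.96 to 14.33 in controls (median 14.08) and from 13.58 to 14.15 with PIO (median 13.89). In 5 PIO animals it lay below the lowest control, and its difference was -0.20 (SE 0.075, adjusted p = 0.681 by limma). The adhesion glycoproteins differed by similar amounts with wider spread. Mag, at the axonal face of the sheath, ran from 10.60 to 11.30 in controls (median 10.84) and from 10.12 to 10.95 with PIO (median 10.74), a difference of -0.22 (SE 0.12). Mog, on its outer face, ran from 10.67 to 11.20 (median 11.07) and from 10.39 to 11.34 (median 10.86), a difference of -0.18 (SE 0.11). For Mog both the lowest and the highest of the 16 arrays were PIO animals, 15 and 16. Mobp, a small basic protein of the cytoplasmic face, ran from 13.87 to 14.44 in controls (median 14.15) and from 13.34 to 14.25 with PIO (median 14.03), a difference of -0.19 (SE 0.11). Its value in PIO animal 15, 13.34, lay far under the next lowest PIO animal at 13.88. The cytoskeletal gene Ermn, the tetraspanin gene Tspan2 and the tight junction gene Cldn11 differed by -0.22 (SE 0.16), -0.14 (SE 0.095) and -0.078 (SE 0.12).

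**Figure D3:**
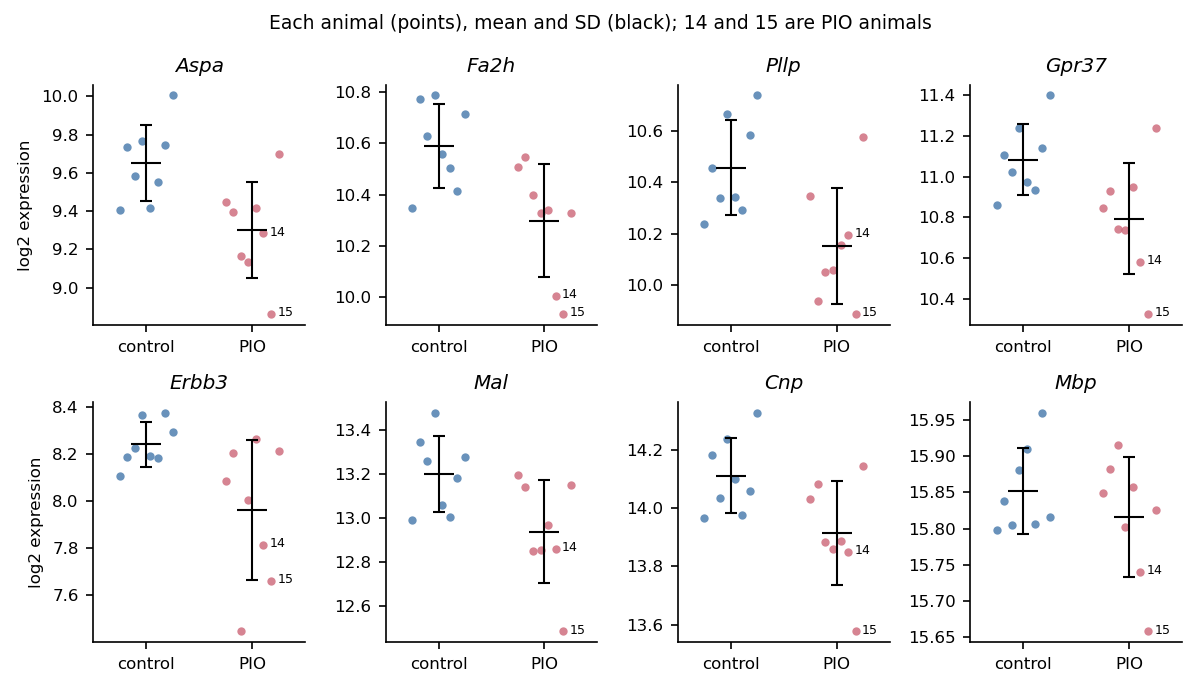
Log2 expression of 8 members in each animal (points), with the group mean and SD in black and PIO animals 14 and 15 labelled. The groups overlap in every panel. PIO animal 15 is the lowest array in all panels but that of Erbb3, where PIO animal 11 is lowest at 7.45.

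For Mbp, the protein that compacts the cytoplasmic faces of the membrane, the result depended on the probe set. The probe set with the highest mean (15.83 log2 units) ran from 15.80 to 15.96 in controls (median 15.83) and from 15.66 to 15.92 with PIO (median 15.84), a difference of -0.036 (SE 0.040, adjusted p = 0.881 by limma). It also had the smallest spread within groups of the 8 Mbp probe sets, 0.072 log2 units. The 5 probe sets with means from 13.69 to 15.47 differed by -0.23 to -0.12, with spreads of 0.12 to 0.21, and each correlated with the mean of the other members over the 16 animals with r between 0.89 and 0.94 (group means removed, given as a description). The probe set of highest mean correlated with them at r = 0.55. The 2 dimmest, at 10.68 and 8.36, differed by -0.034 and -0.29 and correlated at -0.37 and 0.34. Which of these follows Mbp transcript cannot be told apart from the deposited values, and every one of the 8 was lower with PIO. Over all members, 58 of 60 probe sets above the filter were lower, and in 13 of the 14 members with more than 1 such probe set all went the same way; the exception was Evi2a.

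**Figure D4:**
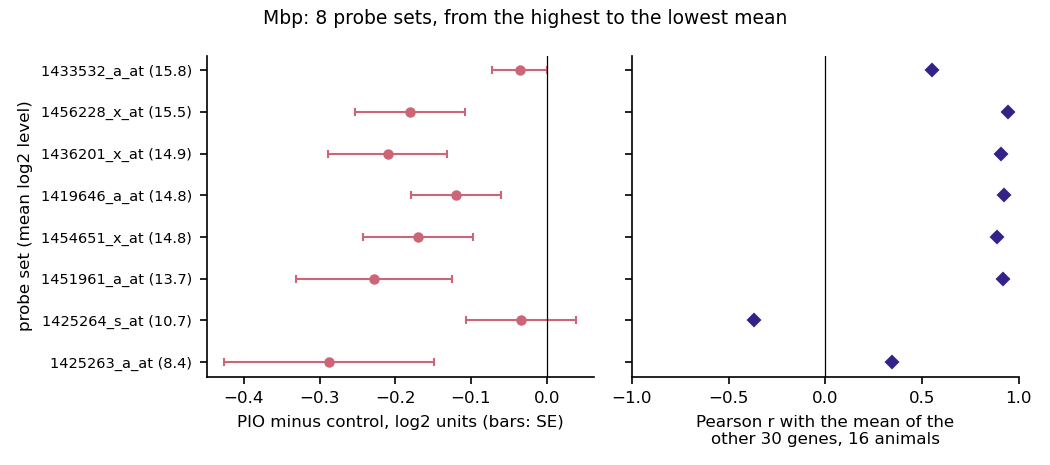
The 8 Mbp probe sets, ordered from the highest to the lowest mean level (in parentheses, log2 units). Left, PIO minus control with SE over 8 animals a group; right, Pearson r with the mean of the other 30 members over 16 animals with group means removed. The probe set chosen by the rule, at the top, has a difference of -0.036 and r = 0.55, while the next 5 have differences of -0.23 to -0.12 and r of 0.89 to 0.94.

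The gap junction class held the connexin genes Gjb1 and Gjc3. Gjb1, a connexin of myelin and oligodendrocyte processes, had the largest difference of all members, -0.37 (SE 0.17), and ran from 7.15 to 7.98 in controls (median 7.79) and from 6.67 to 7.88 with PIO (median 7.30). Its spread was as large, with 3 PIO animals below the lowest control and an adjusted p of 0.710 by limma. Gjc3, another oligodendrocyte connexin gene, ran from 4.92 to 6.42 (median 5.27) and from 4.69 to 5.58 (median 5.28), so the medians were nearly equal while the means differed by -0.23 (SE 0.18). Control animal 8, at 6.42, set the upper end.

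For the transcription factors that drive myelination the medians of the groups lay close together. Myrf ran from 9.35 to 9.83 in controls (median 9.50) and from 8.87 to 9.92 with PIO (median 9.47), a difference of -0.14 (SE 0.12). Nkx6-2, a homeodomain factor of maturing oligodendrocytes, ran from 2.94 to 4.82 (median 4.51) and from 3.51 to 5.31 (median 4.52). It was the only member with a higher mean with PIO, by 0.11 (SE 0.26), and without control animal 1, which lay at 2.94, the difference was -0.091. Nkx6-2 was a low signal, with a mean of 4.42 over the arrays against array medians of at least 5.64. The value in control animal 1 lay under the filter level of 3.58. No difference between regulators and structural genes was tested.

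Among receptors and signalling genes all 5 were lower. Gpr37, a receptor that restrains oligodendrocyte differentiation, ran from 10.86 to 11.40 in controls (median 11.06) and from 10.32 to 11.24 with PIO (median 10.80), with 5 PIO animals below the lowest control. Its difference was -0.29 (SE 0.11, adjusted p = 0.681 by limma). Erbb3, a neuregulin receptor of the oligodendrocyte lineage, ran from 8.11 to 8.38 (median 8.21) and from 7.45 to 8.27 (median 8.05). Its controls were close together (SD 0.095) and the PIO animals spread out (SD 0.30), with PIO animals 11, 15 and 14 lowest. The difference was -0.28 (SE 0.10, adjusted p = 0.681 by limma). Plekhb1, a pleckstrin homology protein, Ppp1r14a, an inhibitor of myosin phosphatase, and Ndrg1, a protein needed for peripheral myelin, differed by -0.21 (SE 0.078), -0.18 (SE 0.12) and -0.11 (SE 0.10).

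The other enzymes and the remaining members followed. Car2, the carbonic anhydrase of oligodendrocytes, Qdpr, which recycles tetrahydrobiopterin, and Adamts4, a protease of proteoglycans, differed by -0.13 (SE 0.083), -0.099 (SE 0.059) and -0.059 (SE 0.12). Gsn, the actin-severing protein gelsolin, differed by -0.11 (SE 0.10). The membrane genes Tmem88b and Evi2a and the early myelination gene Bcas1 differed by -0.32 (SE 0.15), -0.24 (SE 0.097) and -0.23 (SE 0.10).

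Structural genes were then set against lipid enzymes. The median difference was -0.20 for the 11 structural genes and -0.27 for the 4 lipid enzymes, a gap of 0.078 log2 units between medians over genes. Aspa was counted among these 4, although it acts on N-acetylaspartate and not on a lipid. It had the largest difference of the 4, -0.35, and the gap without it was not computed. The structural minus lipid enzyme mean was -0.045 ± 0.051 over the controls and 0.045 ± 0.10 over the PIO animals (SD, n = 8 a group), a gap of 0.089 (SE 0.041) given without a test, and the ranges, -0.12 to 0.035 and -0.12 to 0.16, overlapped. The values differed within the PIO group: PIO animals 11, 14 and 16 had values of 0.16, 0.13 and 0.15, and PIO animals 13 and 15 had -0.12 and -0.063. Over the 16 animals the means of both classes moved together, with Pearson r = 0.90 and Spearman rho = 0.88 after removal of group means, and r = 0.86 without PIO animals 14 and 15. These correlations are descriptions of classes measured on the same arrays.

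Co-variation between animals was the clearest property of the list. Over 465 pairs of members, with group means removed, the median Pearson r over 16 animals was 0.67 (quartiles 0.50 and 0.80), and 45.6% of pairs had r above 0.7. For pairs of all genes tested the median was 0.024 and the share above 0.7 was 1.29%. The median was 0.68 among the 8 controls alone and 0.73 among the 8 PIO animals alone. It was 0.58 without PIO animals 14 and 15 and 0.55 in the 11 arrays of code A. The members share arrays and tissue pieces, and no p is given for these medians.

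The members were not all alike in this. Plekhb1 and Mobp were closest, at r = 0.97, followed by Bcas1 with Plekhb1 at 0.96. Myrf, whose product activates myelin genes, had r = 0.94 with Bcas1, 0.85 with Mag and 0.62 with Mbp. Cnp was nearest to the list as a whole, with r = 0.94 with the mean of the other 30 members. Gsn was farthest, at 0.32, followed by Nkx6-2 at 0.40, and Gsn and Gal3st1 had the lowest pair value, -0.34. Nkx6-2 and Gjc3 had the lowest mean levels of the members, 4.42 and 5.34 log2 units. The chosen Mbp probe set had a median r of 0.51 with the other members, and of 0.067 without PIO animals 14 and 15, while that of Gjc3 was 0.50 with these animals and 0.66 without them.

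Of 8 pairs set by shared function or family, 2 had an adjusted permutation p under 0.05 by Pearson r and 5 by Spearman rho. The permutations set each pair against no correlation, whereas the median Pearson r over all pairs of members was 0.67. Only Ugt8a with Fa2h lay above that median, so the p-values do not set these pairs apart from other members. For Ugt8a and Fa2h, whose products use and supply hydroxylated ceramide for galactolipid, Pearson r was 0.95 (permutation p = 1e-05, the smallest these permutations can give, adjusted p = 8e-05) and Spearman rho 0.94 (permutation p = 4e-05, adjusted p = 3.2e-04). Without PIO 14 and control 1, the 2 animals farthest from the median of Ugt8a, r was 0.93, and in code A alone it was 0.97. For Ugt8a and Gal3st1, which act in sequence on the same lipid, r was 0.31 (permutation p = 0.270, adjusted p = 0.308) and rho 0.30 (permutation p = 0.279, adjusted p = 0.300), and r was 0.17 without the same 2 animals. Fa2h and Gal3st1 had r = 0.21 (permutation p = 0.457, adjusted p = 0.457) and rho = 0.29 (adjusted p = 0.300, permutation test), with r = 0.12 without PIO animals 14 and 15. Gal3st1 instead lay closest to Erbb3, at r = 0.88, a pair chosen after its value was seen.

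Aspa had r = 0.61 with Gal3st1 (permutation p = 0.0195, adjusted p = 0.0521) and rho = 0.73 (permutation p = 0.0026, adjusted p = 0.0104), and r was 0.65 without PIO animals 11 and 13. With Fa2h it had r = 0.58 (adjusted p = 0.0569, permutation test) and rho = 0.58 (adjusted p = 0.0424), and r was 0.45 without PIO animals 14 and 15. With Ugt8a it had r = 0.56 (adjusted p = 0.0569, permutation test) and rho = 0.54 (adjusted p = 0.057), and r was 0.59 without PIO 14 and control 1. The tetraspan genes Mal and Pllp had r = 0.66 (permutation p = 0.00937, adjusted p = 0.0375) and rho = 0.69 (adjusted p = 0.0143), with r = 0.56 without PIO 15 and control 4 and 0.42 in code A. The connexin genes Gjc3 and Gjb1 had r = 0.48 (permutation p = 0.044, adjusted p = 0.0587) and rho = 0.59 (adjusted p = 0.032), with r = 0.42 without control 8 and PIO 11 and 0.47 in code A.

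**Figure D5:**
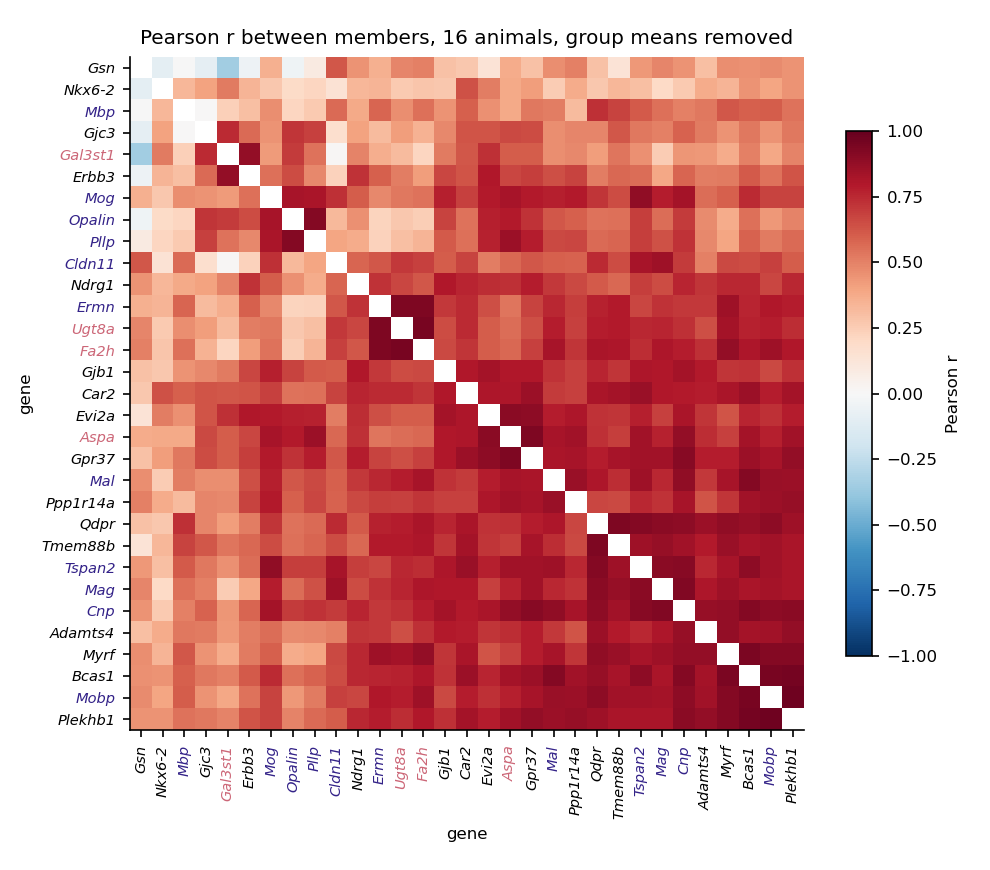
Pearson r between each pair of the 31 members over 16 animals with group means removed, from -1 (blue) to 1 (red), with genes ordered by average-linkage clustering on 1 minus r and names of structural genes in purple and of lipid enzymes in pink. Most pairs are above 0.5, Ermn, Ugt8a and Fa2h lie together at 0.93 to 0.95, and the palest rows are those of Nkx6-2 and Gsn, with median r of 0.33 and 0.36.

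Promoter sequences are shown for Aspa and Pllp, among the members with the smallest p, and for Cnp, the member closest to the mean of the rest and chosen after its values were seen, since these members varied together. Fa2h is named only. They run from 250 bases before to 50 bases after the transcription start, written in the direction of transcription, from RefSeq on GRCm38.p6, where 22 of the 31 members were listed. Aspa is at chr11:73324588-73324887 on the minus strand, Pllp at chr8:94696193-94696492 on the minus strand and Cnp at chr11:100574689-100574988 on the plus strand, and capitals mark matches to the motifs searched.
Aspa: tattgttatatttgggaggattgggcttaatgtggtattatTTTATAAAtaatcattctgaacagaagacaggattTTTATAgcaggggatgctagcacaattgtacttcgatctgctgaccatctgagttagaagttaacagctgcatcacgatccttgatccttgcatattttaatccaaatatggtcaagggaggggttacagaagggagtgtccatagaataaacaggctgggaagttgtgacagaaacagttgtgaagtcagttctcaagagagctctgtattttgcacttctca
Pllp: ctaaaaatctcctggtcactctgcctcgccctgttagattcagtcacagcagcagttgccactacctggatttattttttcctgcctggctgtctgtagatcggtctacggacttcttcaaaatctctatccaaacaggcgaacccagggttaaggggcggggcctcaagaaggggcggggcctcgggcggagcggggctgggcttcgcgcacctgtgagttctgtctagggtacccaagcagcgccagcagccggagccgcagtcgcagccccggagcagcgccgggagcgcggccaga
Cnp: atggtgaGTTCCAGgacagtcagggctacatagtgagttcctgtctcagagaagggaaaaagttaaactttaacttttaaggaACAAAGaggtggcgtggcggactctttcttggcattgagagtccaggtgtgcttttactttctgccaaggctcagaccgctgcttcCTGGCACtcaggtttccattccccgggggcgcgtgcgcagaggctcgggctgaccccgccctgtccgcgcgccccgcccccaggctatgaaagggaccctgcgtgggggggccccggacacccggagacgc
The motifs, searched on both strands, were CTGGNAC for MYRF, ACAAAG and ACAATG for SOX factors, AGGTCA for a short nuclear receptor site such as PPAR and RXR bind, and TATAAA for a TATA box. The Cnp window held CTGGNAC at bases 8 to 14 and 170 to 176 and ACAAAG at 84 to 89, and the Pllp window held none of these motifs. The Aspa window held 3 matches to TATAAA, at bases 42 to 47, 44 to 49 and 77 to 82, the first 2 overlapping on opposite strands. All 3 lie far ahead of the transcription start, which follows base 250, and are not shown to be a TATA box. Over the 33 promoter windows of the 22 members, 11 held CTGGNAC, against 19.3% of all 32851 windows, and 9 held ACAAAG, against 18.7%. ACAATG was in 5 (12.6% of all windows), AGGTCA in 2 (16.3%) and TATAAA in 2 (13.6%). Several windows belong to 1 gene, and 9 of the 22 genes had CTGGNAC in at least 1 window, among them Cnp, Mag, Mog, Opalin, Gjb1 and Gpr37. The share of all genes with at least 1 such window was not counted, and the 19.3% of windows is not its equal. A match is a description of the letters and not of binding.

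Other genes of the same cells were then examined. Of 40 other genes of mature oligodendrocytes, 34 were measured, of which 28 were lower with PIO (47.3% of all genes were), with a median difference of -0.098 log2 units. At an unadjusted p under 0.05, 7 were lower and 0 higher (3.15% and 3.86% of all genes), and 0 had an adjusted p under 0.05 by limma. Fgfr2, a fibroblast growth factor receptor, differed by -0.22 (SE 0.076), Phldb1, a pleckstrin homology protein, by -0.17 (SE 0.061), Prr5l, a partner of the mTOR complex, by -0.30 (SE 0.12) and the ion channel gene Tmem63a by -0.26 (SE 0.11). The mean of these 34 genes followed that of the members over the 16 animals with r = 0.94 and rho = 0.95, and with r = 0.91 without PIO animals 14 and 15. The precursor list did not follow it (r = -0.19, rho = -0.19), and 8 of its 14 measured genes were lower, with a median of -0.026.

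A list of 25 other genes that make or break down sphingolipids included some of galactolipid breakdown. Of these 25, 22 were measured and 12 were lower (47.3% of all genes were), with a median difference of -0.0048. At an unadjusted p under 0.05, 0 were lower and 1 higher, counts near the 3.15% and 3.86% of all genes. The higher gene was Ugcg, which makes glucosylceramide from the ceramide that Ugt8a also uses. Its mean was 10.07 ± 0.084 log2 units over the controls and 10.19 ± 0.094 over the PIO animals (SD, n = 8 a group). The difference was 0.12 (SE 0.047, adjusted p = 0.681 by limma), and a link of Ugcg to the myelin genes was not tested. The ceramide synthase gene Cers4, the reductase gene Kdsr and the elongase gene Elovl1 differed by 0.12 (SE 0.065), 0.082 (SE 0.051) and -0.11 (SE 0.076). The list mean had r = 0.12 with that of the members.

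Among 12235 genes outside the list, 150 had r above 0.7 with the mean of the members over the 16 animals, group means removed. The 10 highest were Plekhh1 at 0.95, Tmem63a and Litaf at 0.93, Snx33 at 0.92, Rhog at 0.91, Gatm at 0.90, Gstm7, Grb14 and Csrp1 at 0.88 and Pls1 at 0.86. Of these, Tmem63a, Rhog and Pls1 were on the list of other oligodendrocyte genes, and 10 of the 34 on it were among the 100 highest. Litaf, Plekhh1 and Snx33 differed between diets by -0.36 (SE 0.14), -0.25 (SE 0.11) and 0.062 (SE 0.12), with adjusted p = 0.681, 0.681 and 0.938 by limma. The lowest values belonged to Galnt2 at -0.91, Pcdh7 at -0.89, Dcbld2 at -0.88, Pmepa1 at -0.87 and Tpbg at -0.86, and Tpbg was at a difference of 0.38 (SE 0.13, adjusted p = 0.644 by limma). Without PIO animals 14 and 15 the 10 highest ran from 0.78 to 0.91 and the 5 lowest from -0.87 to -0.74. These values describe likeness over 16 arrays and are given without a p.

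Lists of other cells and neighbouring tissue were set beside the members. Group means were lower with PIO in 13 of 16 astrocyte genes, 16 of 17 microglial genes, 7 of 13 neuronal genes and 14 of 16 hippocampal genes (47.3% of all genes), with median differences of -0.066, -0.21, -0.030 and -0.15. They were lower in 0 of 12 choroid plexus genes (median 1.41), 4 of 14 striatal genes (0.14) and 2 of 12 thalamic genes (0.13), and 0 genes of these lists had an adjusted p under 0.05 by limma. At an unadjusted p under 0.05 by limma, 5 microglial, 3 astrocyte and 1 thalamic genes were lower (3.15% of all genes). At that level 3 striatal, 1 hippocampal and 1 thalamic genes were higher (3.86% of all genes). The part of these lists in the difference of the myelin genes was not tested beyond the fits given here. With group means removed, the mean of the members had r = -0.69 and rho = -0.79 with the striatal list, and r = -0.34 without PIO animals 14 and 15. For the hippocampal list r was 0.69 and rho 0.62, and r was 0.38 without these animals. For the astrocyte, microglial, neuronal, choroid plexus and thalamic lists r was 0.36, 0.22, 0.084, 0.076 and 0.39. Without PIO animals 14 and 15 these values were -0.083, 0.085, -0.26, 0.19 and 0.22.

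The difference between diets was smaller without these animals. Without PIO animals 14 and 15 the median member difference was -0.12 (-0.0019 for all genes), with 26 of 31 lower. In that fit 4 members were lower at an unadjusted p under 0.05, where 2.01% of all genes were. These were Aspa (-0.28, SE 0.10), Pllp (-0.27, SE 0.11), Fa2h (-0.18, SE 0.073) and Plekhb1 (-0.13, SE 0.060). With the mean of the striatal genes added as a covariate the median was -0.12, and 3 members, Aspa, Pllp and Fa2h, remained lower at that level (2.3% of all genes). Other tissue covariates did not shrink it: with the thalamic mean the median was -0.25 with 16 members lower at that level (2.61% of all genes), and with the choroid plexus mean it was -0.21 with 13 (2.65%). Without PIO animal 16 it was -0.25 with 16 members (2.69%). The smallest adjusted p of a member was 0.968 without PIO animals 14 and 15 and 0.866 with the striatal covariate by limma. Cldn11 and Adamts4 were at higher means with PIO in both of these fits, by 0.048 and 0.049 without the animals and by 0.023 and 0.084 with the covariate.

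Within the array labels the difference was not uniform. In the 11 arrays of code A the median member difference was -0.095 (3.8e-04 for all genes), with 27 of 31 lower. There 3 members (Aspa, Pllp and Gpr37) were lower at an unadjusted p under 0.05, where 1.08% of all genes were. With the code as a block the median member difference was -0.22. Codes B and C held 3 and 2 arrays: the member mean was 0.14 and 0.25 in the controls and -0.50 in the PIO animal of code B, and 0.35 and 0.14 in the control and PIO animal of code C. In the 10 arrays numbered 10 to 24 the median was -0.28 (0.021 for all genes), with 30 lower and 17 at an unadjusted p under 0.05 (2.25% of all genes). In the 6 arrays numbered 1 to 6 it was -0.015 against -0.029 for all genes, so the members were no lower there than all genes. Of the members 17 were lower there, and 0 were so at an unadjusted p under 0.05 (4.23% of all genes). The member means were 0.069 in 4 controls and 0.070 in 2 PIO animals. Whether the difference varied between the ranges of array number was not tested.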

How the data were processed

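The deposited values are log2 expression per probe set and array, 1 array per animal, and the scale was taken from the values (0.326 to 16.6, array medians 5.64 to 5.76). Per the submitters' processing notes MAS5, GCRMA and R 2.7.1 are named, but their roles are not stated, so the method behind the deposited values is unknown here. The values were taken as normalized between arrays, and precision is limited by having 16 arrays. Any pair of arrays had r of 0.994 to 0.998, which a shift of a whole array would leave unchanged. With all arrays set to a common median, the median difference was -0.25 for the members and -0.028 for all genes. Of 45101 probe sets, 64 controls were left out, 34945 had 1 gene symbol in the platform annotation, 932 several and 9160 none here. Low probe sets, with a mean at or under the 40th percentile of 3.58 log2 units, were left out, and the highest-mean probe set stood for each of 12266 genes. A model holding group alone was fitted to every gene by limma 3.58.1 (lmFit, eBayes; R 4.3.3), and p-values were adjusted by Benjamini-Hochberg over all of them. The fit was tested on simulated data. Differences carry the moderated SE. Correlations used values with group means removed, with p from 100000 permutations within groups (two-sided), adjusted over 8 pairs.

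The members and lists were chosen with earlier results of these data known. Genes named were all members (with per-animal ranges for those with the 6 smallest p and for set structural, lipid, connexin and regulator genes), the 10 highest and 5 lowest in correlation with the member mean, and up to 4 of each list by smallest p. Protein sequences were not used here. Exact two-sided permutation tests of each member over 12870 rearrangements, other filters, normalizations, probe set rules, covariates, array subsets and leaving out each animal were tried as alternatives.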

Additional observations from a re-analysis of the deposited data

Results flagged for a closer look

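Of 64 groups of 8 animals examined, 4 held an animal far from the others, measured as the gap to the nearest animal over the range of the group, where chance gives about 1 in 20. In PIO animal 15 Mobp was 13.34 log2 units, against 13.88 in the nearest PIO animal (gap over range 0.595), Plekhb1 was 12.45 against 12.84 (0.596), and Bcas1 was 12.02 against 12.47 (0.528). These genes varied together over the animals, with Pearson r of 0.95 to 0.97 between them. In control animal 1 Nkx6-2 was 2.94, against 4.30 in the nearest control (0.722).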

How the results depend on the processing

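Across the alternatives other than arrays 1 to 6 alone, 940 of 954 member values kept their direction, 14 were reversed and 0 had an adjusted p under 0.05 by limma. The 954 are not separate checks: the other filters left the differences of the members unchanged, and fits without 1 animal shared most arrays. In the main fit 13 members were lower at an unadjusted p under 0.05 and, of all genes, 386 were lower and 473 higher. That count of 13 became 3 in code A alone and 3 with the striatal covariate. It became 4 without PIO animals 14 and 15 and 0 in arrays 1 to 6. In arrays 1 to 6, a subset chosen after seeing the data, the median member difference was -0.015, against -0.029 for all genes. There 17 of 31 members were lower. In code A Mbp was at 0.0098, Adamts4 at 0.094 and Myrf at 0.023. With the striatal covariate Cldn11 was at 0.023 and Adamts4 at 0.084. Without PIO animals 14 and 15 Mbp was at 0.0036, Cldn11 at 0.048, Ermn at 0.0038 and Adamts4 at 0.049. Without probe sets of shared sequence Evi2a was at 0.020. Leaving out 1 animal put Nkx6-2 at -0.091 (without control 1) and -0.0086 (without PIO 13), and Adamts4 at 7.5e-04 (without control 8) and 0.016 (without PIO 15), in ranges of -0.12 to 0.016 for Adamts4 and -0.091 to 0.25 for Nkx6-2. Leaving out each animal gave 9 to 18 members at that level (1.96% to 4.49% of all genes), 0 to 0 past the adjusted threshold, a median difference of -0.26 (without control 1) to -0.15 (without PIO 15), a structural minus lipid enzyme gap of 0.056 to 0.12 and a median correlation of 0.60 to 0.71. The cause of these changes was not tested. The exact permutation test gave 10 members lower at an unadjusted p under 0.05. It was run on the members alone, so no share of all genes can be set beside that count. It used the same arrays as the main fit and is not a separate observation. No paired analysis was possible because the groups share no replicate numbers. Fewer than 10 animals a group limit the precision.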
